A study of Mus musculus with 4 samples.

Results

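Chemokines are small secreted proteins that draw leukocytes along a gradient, and they act through membrane receptors coupled to G proteins on the target cell. The CC ligands, such as Ccl2, mainly draw monocytes, macrophages, eosinophils and lymphocytes, and many CXC ligands, such as Cxcl1 and Cxcl2, draw neutrophils. In adipose tissue Ccl2 is known as an adipocyte and stromal product that draws monocytes through the receptor Ccr2. TLE3 is a corepressor of the Groucho family that does not bind DNA by itself and is brought to chromatin by factors such as RUNX and TCF/LEF proteins.

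The chemokine and chemokine receptor genes described here were taken from 3 region lists of TLE3 chromatin immunoprecipitation sequencing (ChIP-seq). A gene was a member if its name was Ccl, Cxcl, Ccr or Cxcr with a number, or Cx3cl1, Cx3cr1, Xcl1 or Xcr1, and if it was the nearest gene of a region whose centre lay within 50 kb of its start. This gave 44 of the 13381 genes with a region within that distance, and 156 of the 69599 regions in the joined lists (211 were nearest to such a gene at any distance). The libraries were 1 TLE3 library each from adipocytes grown out of white fat, epididymal (eWAT) or inguinal (iWAT), or of brown fat (BAT), and 1 input library from iWAT adipocytes. All groups were male NMRI mice aged 4 to 5 weeks, pooled from 10 to 15 animals, with no genetic change named. The cultures began from stromal-vascular cells, received insulin at 30 nM and the PPARγ agonist rosiglitazone at 1 µM, and ended on day 8. Every group thus carried the same agonist, and cultures were kept from 50% differentiation upward, so other stromal cells could remain. Crosslinking used disuccinimidyl glutarate at 2 mM (15 min), then formaldehyde at 1% (30 min).

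Values are scaled reads, the number of reads in a region of fixed width after the authors' scaling of each library to one total. A single read counts as 0.883 scaled reads for eWAT, 0.526 for iWAT and 2.77 for BAT, so the BAT library was the shallowest. A value of 0 reads allows up to 2.65, 1.58 and 8.30 scaled reads in that order. With 1 library per depot there is no replicate error and no test, and depot and library cannot be told apart. The intervals given are exact Clopper-Pearson 95% intervals of the split of reads between 2 libraries and cover counting error only. A lower value from fewer cells that carry TLE3 at a region cannot be told apart from less TLE3 per cell. Among genes that mark cell types, 6 of 6 adipocyte genes had a region within 50 kb, as did 4 of 4 endothelial and 4 of 4 fibroblast genes. Having a region is therefore no check of the labelled cell type. Pparg had 1239 in eWAT, 1161 in iWAT and 525 scaled reads in BAT, although occupancy at a gene is not a measure of its RNA.

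The reference annotation held 63 genes with a name that meets the rule, of which 58 code for protein. All 13 CXC ligands, 16 of 29 CC ligands and both Cx3cl1 and Xcl1 had a region. So did 8 of 11 CC receptors, 4 of 6 CXC receptors and 1 of the other 2 receptors. The CC ligands without one included the pseudogenes Ccl16-ps, Ccl19-ps1, Ccl19-ps2 and Ccl19-ps3. They also included Ccl19, Ccl21a to Ccl21d, Ccl27a and Ccl27b, which all lie on chromosome 4. The rest of the 19 genes without one were the ligands Ccl17 and Ccl28 and the receptors Ccr4, Ccr6, Ccr8, Cxcr2, Cxcr3 and Xcr1. Of the 58 protein-coding genes, 40 had a region listed in eWAT (69.0%, Wilson interval 56.2 to 79.4), beside 46.0% of all protein-coding genes. In iWAT 38 had one (65.5%, 52.7 to 76.4), beside 42.4% of all. In BAT 26 had one (44.8%, 32.7 to 57.5), beside 21.5% of all. In each library the share among these genes was above that of all protein-coding genes, and many of these genes lie side by side, so they are not independent of each other. Members had a median of 3 regions, beside 2 for all genes with a region, and up to 14 at Cxcl13.

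The regions lay mostly between genes. Of the 156 regions, 117 (75.0%) were annotated as intergenic, beside 40.8% of all regions within 50 kb, and 17 (10.9%) as intronic, beside 51.3%. Promoter regions made up 6.41%, beside 3.69%, and regions in 3′ UTRs 4.49%, beside 1.21%. A region was listed only with at least 15 scaled reads and 10 times the input in its own library, so a region that came in through 1 list had to be high there. In all 3 lists were 34 member regions (21.8%, beside 15.9% of all), in eWAT and iWAT 56 (35.9%, beside 33.8%), in eWAT alone 39 (25.0%, beside 25.4%), in iWAT alone 21 (13.5%, beside 18.8%) and in BAT alone 4 (2.56%, beside 3.52%). One pair of member regions overlapped, both at Ccl11.

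**Figure D1:**
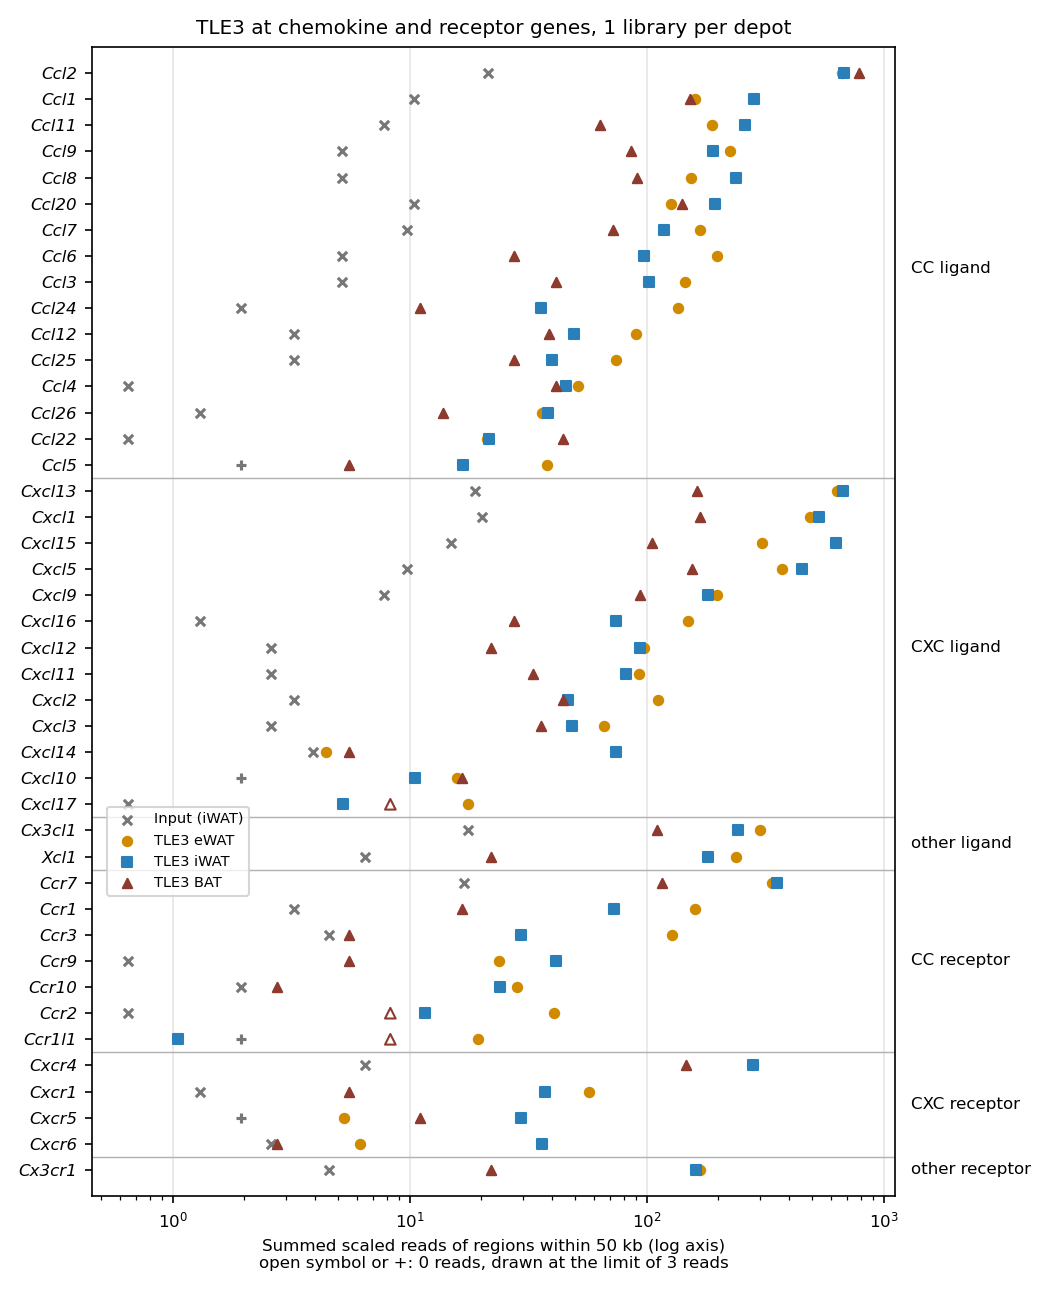
Summed scaled reads within 50 kb of 43 of the genes (log axis) in the 3 TLE3 libraries and the iWAT input, 1 point per library, ordered by role and by mean. Ccl2 is the only gene of the measured ones (mean of 30 or more) whose BAT point (785) lies right of both white-fat points (668 and 679), and the input lies far left of TLE3 for most genes.

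Ccl2, the main monocyte chemoattractant of the family, had the highest summed TLE3 signal of the members in each library, with Cxcl13 close behind in both white depots. Its 8 regions summed to 668 in eWAT, 679 in iWAT and 785 scaled reads in BAT, with 21.5 in the input. Among all 13381 genes this was rank 98 in eWAT, rank 75 in iWAT and rank 6 in BAT. On the authors' scaling Ccl2 was the 1 of 32 measured members with its highest value in BAT, beside 2.80% of all measured genes; a gene counts as measured if its mean over the 3 libraries reached 30 scaled reads.

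The 8 Ccl2 regions span chr11:81820377-81853036 (mm9), from 28.6 kb before the start of Ccl2 to 3.8 kb after it, and no region of another gene lies in that span. The farthest region, at chr11:81820377-81820607 and intergenic, had 215 in eWAT, 176 in iWAT and 395 scaled reads in BAT. The second BAT region, 12.9 kb before the start at chr11:81836104-81836334, had 68.0 in eWAT, 104 in iWAT and 224 in BAT. These distal regions were the highest of the locus in BAT and ranked 19 and 112 among all 69599 regions there.

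On the authors' scale the other 6 regions had lower values in BAT than in either white depot. The promoter region, centred 180 bases before the start at chr11:81848784-81849014, had 92.7 in eWAT, 53.1 in iWAT and 41.5 scaled reads in BAT. The region 3.8 kb after the start, at chr11:81852806-81853036, had 125 in eWAT, 86.7 in iWAT and 63.6 in BAT. The region 2.5 kb before the start had 83.0, 84.1 and 33.2, and it had the highest input value of the locus at 7.16. The upstream regions at 23.6, 20.3 and 3.2 kb were listed in both white depots and not in BAT. At 23.6 kb the values were 26.5 in eWAT, 52.5 in iWAT and 8.30 in BAT. At 20.3 kb they were 30.0, 50.5 and 13.8 in that order. At 3.2 kb they were 28.3, 72.0 and 5.53, so all 3 regions were highest in iWAT.

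The distribution over the locus differed between BAT and the white depots. The 2 distal regions held 42.3% of the Ccl2 reads of eWAT, 41.3% of those of iWAT and 78.9% of those of BAT. To compare depots, the log2 ratio of 2 libraries was taken relative to the median of all measured genes, which lay at 0.16 (eWAT over iWAT), −1.54 (BAT over eWAT) and −1.49 (BAT over iWAT). On that scale Ccl2 had a log2 ratio of BAT over eWAT of 1.77 (1.57 to 1.97), which came to 2.67 (2.42 to 2.92) in the 2 distal regions and 0.32 (−0.09 to 0.71) in the other 6. Over iWAT the values were 1.70 (1.51 to 1.89), 2.63 (2.40 to 2.86) and 0.22 (−0.18 to 0.60). Between the white depots Ccl2 differed by −0.19 (−0.32 to −0.05). The distal regions were chosen for their BAT values, so this split is a description.

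The size of the BAT difference depends on the scaling. On the authors' own scale the Ccl2 ratio was 0.23 (0.03 to 0.43) over eWAT and 0.21 (0.02 to 0.40) over iWAT. Relative to the regions listed in all 3 depots it was 0.98 and 0.87. The sign was the same under every scaling tried, and 2-fold was reached under some of them only.

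**Figure D2:**
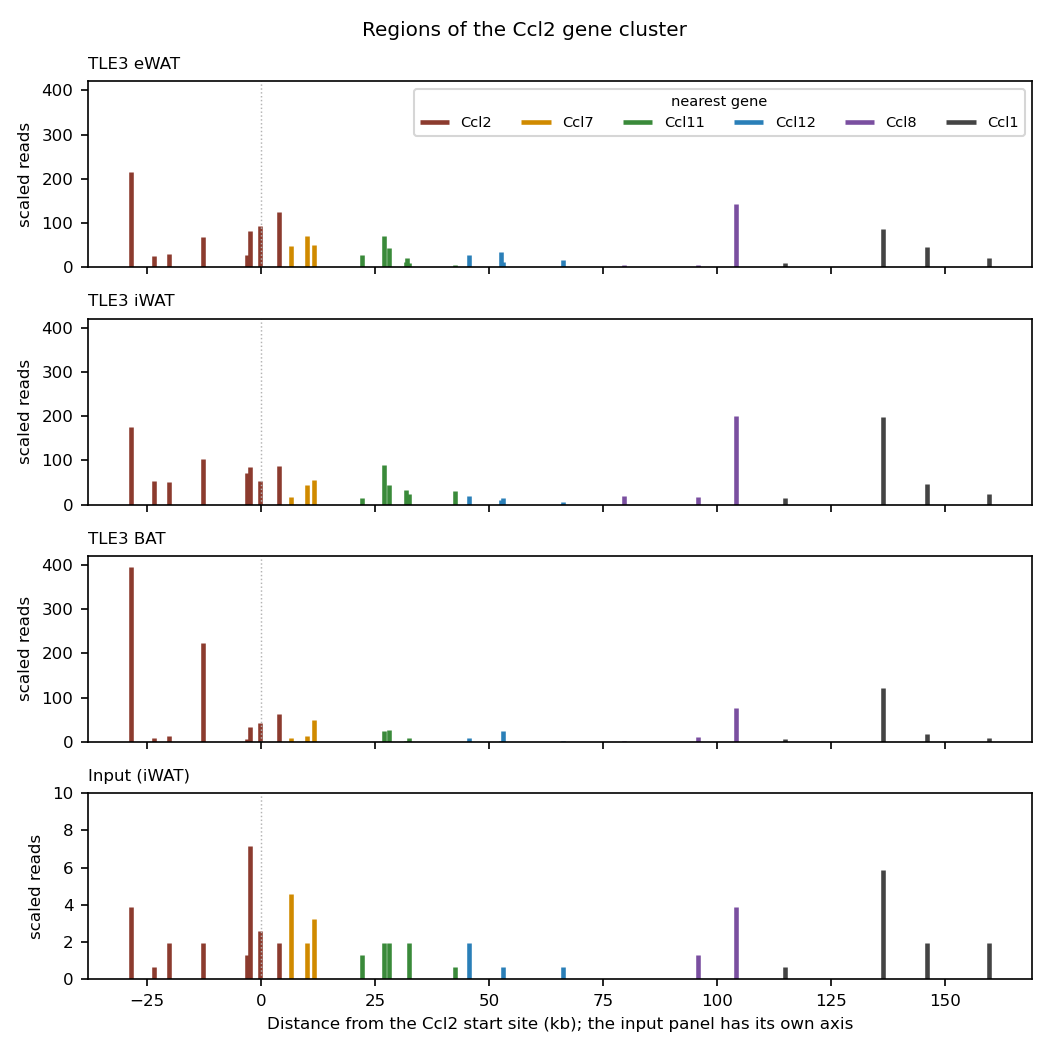
Scaled reads (vertical axis) of the 29 regions of the Ccl2 gene cluster against distance from the Ccl2 start (kb, horizontal axis), with 1 panel per library and colours for the nearest gene; the input panel has its own axis. In BAT the bars 28.6 and 12.9 kb before Ccl2 reach 395 and 224 scaled reads, and no other BAT bar of the cluster passes 122.

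Downstream of Ccl2 the cluster on chromosome 11 continues with Ccl7, Ccl11, Ccl12, Ccl8 and Ccl1 over 188 kb in all. Without Ccl2 these genes summed to 760 in eWAT, 949.6 in iWAT and 418 scaled reads in BAT. Relative to the median gene their log2 ratio was 0.67 (0.41 to 0.92) for BAT over eWAT and 0.30 (0.05 to 0.54) for BAT over iWAT, beside which Ccl2 had 1.77 and 1.70. Ccl7, a further monocyte attractant, had 168 in eWAT, 118 in iWAT and 71.9 in BAT. The eosinophil attractant Ccl11 had 188 in eWAT, 260.1 in iWAT and 63.6 in BAT. Ccl12, a mouse ligand of Ccr2, had 90.1, 49.4 and 38.7. For Ccl8, iWAT was the highest at 238 beside 154 in eWAT and 91.3 in BAT, and most of it came from 1 region 24.5 kb after the start (144, 201 and 77.4). Ccl1, a ligand of Ccr8, had 161 in eWAT, 284 in iWAT and 152 in BAT, again mostly from 1 region, 7.8 kb after the start (86.5, 198 and 122).

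A member was called different between 2 libraries if its ratio, relative to the median gene, was at least 2-fold and its interval left out equality. Of 44 members 32 were measured. BAT over eWAT was higher for 4 of the 32 (Ccl1, Ccl2, Ccl20 and Ccl4), beside 11.4% of all measured genes, and lower for 7 (among them Ccl24, Ccl6, Ccr1, Ccr3, Cx3cr1 and Xcl1), beside 13.1%. BAT over iWAT was higher for 6 (Ccl12, Ccl2, Ccl20, Ccl4, Cxcl2 and Cxcl3), beside 14.1%, and lower for 4 (among them Cx3cr1, Cxcl15 and Xcl1), beside 12.4%. In eWAT over iWAT 3 were higher (Ccl24, Ccr3 and Cxcl2), beside 5.30%, and 1 was lower (Cxcl15), beside 9.04%. Members had median log2 ratios of 0.03, 0.09 and 0.05 in these comparisons, close to the median gene. The BAT comparisons share the BAT library, and each white library enters a pair of comparisons.

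The members called higher in BAT depended on the scaling. On the authors' scale BAT over eWAT had 0 higher and 25 lower members, where 72.4% of all measured genes were lower, and BAT over iWAT had 0 and 21, where 68.1% were. Relative to regions listed in all 3 depots, the counts were 0 higher and 12 lower over eWAT (38.3% of all genes were lower), and 0 and 10 over iWAT (39.7%). These lower counts lay near or below the shares of all genes. Of the 4 members higher over eWAT, Ccl2 and Ccl20 had the same sign under every scaling and Ccl1 and Ccl4 did not; of the 6 higher over iWAT, Ccl2 did. The 7 and 4 lower members kept their sign under every scaling tried, as did the 4 members called between the white depots. Relative to the median gene scaling, however, each other scaling moved the BAT ratios down and the eWAT over iWAT ratios up. The members lower in BAT and those higher in eWAT than in iWAT therefore could not change sign. Cxcl15, lower in eWAT than in iWAT, could have.

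**Figure D3:**
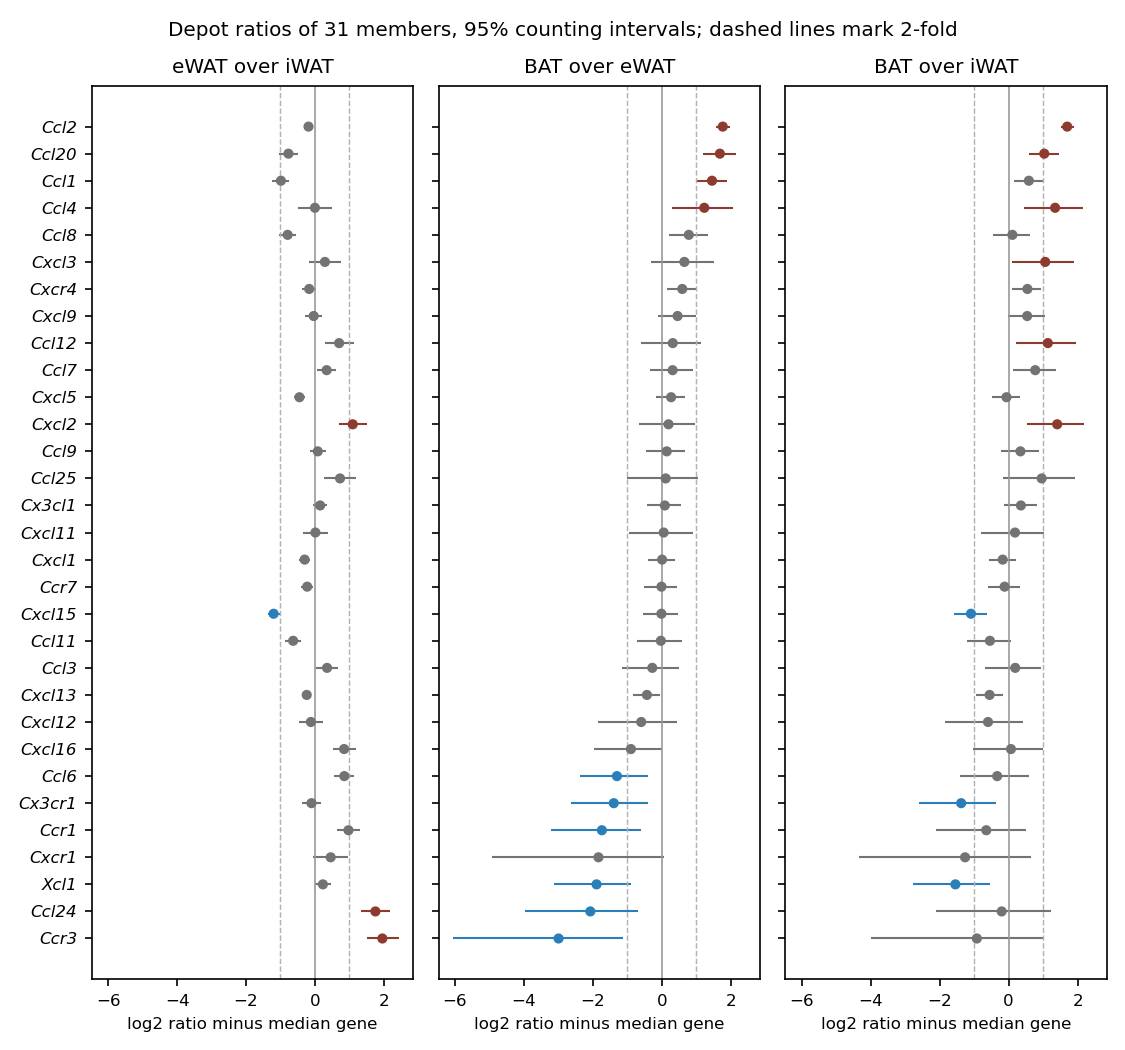
Log2 ratio of scaled reads relative to the median gene (horizontal axis) for 31 measured members, with 95% counting intervals as bars; red and blue mark members called higher and lower, grey the others, and dashed lines mark 2-fold. The ligands Ccl2, Ccl20, Ccl1 and Ccl4 lie at the top of BAT over eWAT and the receptor Ccr3 lies at the bottom, and the intervals widen where BAT reads are few.

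The remaining CC ligands differed in which library was highest. Ccl20, the ligand of Ccr6 that draws Th17 cells and dendritic cell precursors, had 127 in eWAT, 193 in iWAT and 141 scaled reads in BAT. Its region 3.2 kb after the start had 36.2 in eWAT, 32.6 in iWAT and 80.2 in BAT, so here the BAT value was above both white depots. Ccl24, an eosinophil attractant made by macrophages, had 135 in eWAT, 35.7 in iWAT and 11.1 in BAT, and its log2 ratio of eWAT over iWAT was 1.76 (1.33 to 2.19). Ccl6 had 198 in eWAT, 97.7 in iWAT and 27.7 in BAT, and Ccl9, its neighbour, had 225, 189.7 and 85.7. Both are myeloid chemokines of the Ccl3 cluster on chromosome 11. In the same cluster Ccl3 had 146, 102 and 41.5, Ccl4 had 51.2, 45.7 and 41.5, and Ccl5 had 38.0, 16.8 and 5.53. The cluster summed to 658 in eWAT, 452 in iWAT and 202 in BAT. Ccl25, a thymic and gut ligand, had 74.2, 39.9 and 27.7, and Ccl26 had 36.2, 38.4 and 13.8. Ccl22, a ligand of Ccr4, rested on 1 intronic region with 21.2 in eWAT, 21.6 in iWAT and 44.2 in BAT.

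The deposited annotation placed 10 member regions at promoters. In 9 of the 10 the eWAT value was above that of iWAT, beside 66.5% of the 1463 promoter regions near any gene. The median log2 ratio was 1.06 for these and 0.22 for all promoter regions. Ccl3 had 48.6 in eWAT, 11.6 in iWAT and 2.77 scaled reads in BAT at its promoter, and Ccl24 had 94.5, 28.4 and 11.1. The exception was Ccl8, with 5.30 in eWAT, 18.4 in iWAT and 2.77 in BAT. Among the 10, 6 were listed in eWAT and not in iWAT, beside 29.5% of all promoter regions, so they entered by a high eWAT value. Among the 3 listed in both white depots (Ccl2, Ccl24 and Ccl7) the median was 0.69, beside 0.08 for all. Of the 10, only the Ccl2 promoter was listed in BAT, beside 27.1% of all promoter regions. Upstream sequences from RefSeq (GRCm38.p6) were matched for 29 members, 5′ to 3′ on the coding strand and ending at the base before the start. They are shown for the promoters with opposite white-fat values, Ccl3 (chr11:83649379-83649628, minus strand) and Ccl8 (chr11:82114935-82115184, plus strand), and for the receptor gene Ccr1 (chr9:123968693-123968942, minus strand). The capitals mark a RUNX match in Ccl3 and Ccr1 and a TCF/LEF match in Ccl8. The promoters of Ccl6 and Ccl12, also higher in eWAT than in iWAT, held neither match. Whether a match goes with the depot was not tested.
Ccl3: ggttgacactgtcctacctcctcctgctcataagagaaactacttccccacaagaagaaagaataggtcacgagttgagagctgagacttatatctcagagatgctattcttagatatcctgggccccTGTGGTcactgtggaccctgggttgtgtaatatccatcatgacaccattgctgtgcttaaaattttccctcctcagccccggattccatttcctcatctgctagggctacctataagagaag
Ccl8: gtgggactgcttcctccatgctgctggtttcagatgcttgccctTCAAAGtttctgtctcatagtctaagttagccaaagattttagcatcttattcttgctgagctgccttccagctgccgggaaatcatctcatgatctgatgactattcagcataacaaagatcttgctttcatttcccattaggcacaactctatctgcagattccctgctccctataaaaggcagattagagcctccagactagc
Ccr1: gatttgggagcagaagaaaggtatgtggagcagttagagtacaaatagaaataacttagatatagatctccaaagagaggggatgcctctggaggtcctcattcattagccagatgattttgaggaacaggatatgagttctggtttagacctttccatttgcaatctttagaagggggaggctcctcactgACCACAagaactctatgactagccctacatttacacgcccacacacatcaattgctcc

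The motif searches covered 250 bases and both strands in 27025 promoters. RUNX was searched as TGTGGT and matched 9 of 29 member promoters, beside 14.2% of all promoters. TCF/LEF, as CTTTGA, matched 5 of 29, beside 14.05%. The NF-κB letters GGGNNTTTCC matched 6 of 29 (Ccl20, Ccl9, Ccr3, Cxcl1, Cxcl2 and Cxcl3), beside 1.40%. AP-1, as TGANTCA, matched 3, beside 6.87%, and C/EBP, as TTGCNNAA, matched 1, beside 9.55%. A match is a description of letters and not a measured site.

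The CXC ligands that draw neutrophils form a cluster on chromosome 5, where Cxcl1, Cxcl2, Cxcl3, Cxcl5 and Cxcl15 summed to 1345 in eWAT, 1713 in iWAT and 509 scaled reads in BAT. Cxcl1 had 10 regions with 487 in eWAT, 534 in iWAT and 169 in BAT. Cxcl5 had 373, 454 and 155, with its highest region 5.4 kb before the start (177, 199.7 and 124). Cxcl2 had 112 in eWAT, 46.8 in iWAT and 44.2 in BAT, and its log2 ratio of eWAT over iWAT was 1.10 (0.70 to 1.51). Cxcl3 had 66.2, 48.3 and 35.9. Cxcl15, a lung neutrophil attractant, had 307 in eWAT, 629.6 in iWAT and 105 scaled reads in BAT, with a log2 ratio of eWAT over iWAT of −1.20 (−1.37 to −1.02). The region 47.1 kb after the Cxcl15 start had 37.1 in eWAT, 173 in iWAT and 5.53 in BAT, close to the 50 kb limit for assignment to this gene. The NF-κB matches, in capitals, lie within the last 100 bases before the start in Cxcl1 (chr5:90890995-90891244), Cxcl2 (chr5:90903649-90903898), Cxcl3 (chr5:90785851-90786100) and Ccl20 (chr1:83116516-83116765), all GRCm38.p6 and plus strand; Ccl20 also holds a RUNX match in capitals. Only Cxcl2 of these genes had a promoter region, centred 422 bases before the mm9 start, with 16.8 in eWAT, 6.31 in iWAT and 0 in BAT.
Cxcl1: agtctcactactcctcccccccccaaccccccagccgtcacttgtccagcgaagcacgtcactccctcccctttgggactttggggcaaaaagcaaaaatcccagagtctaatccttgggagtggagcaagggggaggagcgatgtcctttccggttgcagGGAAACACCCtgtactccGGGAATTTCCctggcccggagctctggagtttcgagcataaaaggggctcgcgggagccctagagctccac
Cxcl2: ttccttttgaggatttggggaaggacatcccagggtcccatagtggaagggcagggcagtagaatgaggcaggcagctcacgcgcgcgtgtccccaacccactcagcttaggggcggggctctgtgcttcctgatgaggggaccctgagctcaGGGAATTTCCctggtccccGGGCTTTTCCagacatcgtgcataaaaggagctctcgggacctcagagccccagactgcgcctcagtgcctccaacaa
Cxcl3: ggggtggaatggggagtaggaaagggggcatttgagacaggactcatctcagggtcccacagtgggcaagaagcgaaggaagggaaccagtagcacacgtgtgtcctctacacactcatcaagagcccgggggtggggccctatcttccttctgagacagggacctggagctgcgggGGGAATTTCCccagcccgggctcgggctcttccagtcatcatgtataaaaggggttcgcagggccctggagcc
Ccl20: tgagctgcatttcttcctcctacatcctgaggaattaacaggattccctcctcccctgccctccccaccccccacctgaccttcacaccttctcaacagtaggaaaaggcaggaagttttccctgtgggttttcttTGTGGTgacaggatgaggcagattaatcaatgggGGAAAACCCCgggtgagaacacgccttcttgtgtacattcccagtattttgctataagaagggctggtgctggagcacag

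Cxcl13, the B cell attractant, had the most regions of any member. Its 14 regions summed to 638 in eWAT, 672 in iWAT and 163 scaled reads in BAT, and 1 region 11.6 kb before the start held 235, 215 and 55.3 of these. The Cxcl13 regions were not alike: 1 region at 18.3 kb had 43.1 in iWAT and 0 in both eWAT and BAT. The interferon-induced ligands of Cxcr3, also on chromosome 5, were led by Cxcl9 with 199 in eWAT, 182 in iWAT and 94.0 in BAT, and Cxcl11 had 92.7, 82.0 and 33.2. Cxcl11 is annotated as a transcribed pseudogene in the reference. Cxcl12, the ligand of Cxcr4, had 97.1, 94.1 and 22.1, and Cxcl16, the ligand of Cxcr6, had 149, 74.1 and 27.7. Cxcl14 rested on 1 region 11.6 kb before the start, with 4.42 in eWAT, 74.1 in iWAT and 5.53 in BAT; the input there was 3.90, near the values of eWAT and BAT. Of the ligands outside both classes, Cx3cl1, which is membrane-bound, had 302, 243 and 111. Xcl1, a lymphocyte product, had 238 in eWAT, 181 in iWAT and 22.1 in BAT, and was lower in BAT than in both white depots.

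Several CC receptors had few reads in BAT. Ccr1, Ccr1l1, Ccr2 and Ccr3 lie in 1 cluster on chromosome 9 and are known from monocytes, macrophages and eosinophils. The 11 regions of these 4 genes summed to 349 in eWAT, 115 in iWAT and 22.1 scaled reads in BAT. All 11 were listed in eWAT, 2 in iWAT and 0 in BAT. In 11 of 11 the eWAT value was above that of iWAT, beside 57.9% of all regions within 50 kb, and in 8 of 11 BAT had 0 reads, beside 18.7%. Since 9 of the 11 came in through the eWAT list alone, these counts had to lean to eWAT. For scale, the median of those 9 was 23.0 in eWAT, 5.78 in iWAT and 0 in BAT, beside 24.7, 9.98 and 2.77 for all regions within 50 kb listed in eWAT alone.

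Within the cluster, Ccr3, the eotaxin receptor, had 128 in eWAT, 29.4 in iWAT and 5.53 scaled reads in BAT over 5 regions. Ccr1 had 161 in eWAT, 73.0 in iWAT and 16.6 in BAT. Ccr2, the receptor of Ccl2, had 40.6 in eWAT, 11.6 in iWAT and 0 in BAT, where 0 reads allows up to 8.30. At the side of the cluster, Ccr9 had 23.8 in eWAT, 41.5 in iWAT and 5.53 in BAT, and Cxcr6 had 6.18, 36.3 and 2.77. Each rested on 1 region and stayed under the minimum mean. The Cxcr6 region was listed in iWAT alone, so it had to lean to iWAT. Ccr1 and Ccr3 had log2 ratios of BAT over eWAT of −1.74 (−3.20 to −0.59) and −3.00 (−6.05 to −1.12). Ccr7, the lymph node homing receptor, had the highest receptor sum in both white depots, with 339 in eWAT, 354 in iWAT and 116 in BAT, and its log2 ratio of BAT over eWAT was −0.01 (−0.50 to 0.45). Its regions split between the white depots, with 68.9 in eWAT and 174 in iWAT at 25.6 kb, and 86.5 in eWAT and 31.0 in iWAT at 19.8 kb.

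Of 7 genes that mark macrophages, 6 had a region; 6 had one listed in eWAT, 3 in iWAT and 1 in BAT, where 46.0%, 42.4% and 21.5% of all protein-coding genes had one. By the 2-fold rule 0 of the 3 measured markers were called between the white depots. Of all measured genes 5.30% were higher and 9.04% lower in eWAT over iWAT. The median log2 ratio of these 3 was 0.67. None was called between BAT and iWAT, and Ptprc was lower in BAT than in eWAT. Itgam, Adgre1 and Lyz2 stayed under the minimum mean and got no call. Their log2 ratios of eWAT over iWAT were 2.66 (1.92 to 3.46), 2.36 (1.48 to 3.34) and 2.24 (1.34 to 3.22). In iWAT and BAT their sums lay under the minimum for listing, so they came in through eWAT alone and had to lean to it. The 6 genes with a region summed to 449.5 in eWAT, 193 in iWAT and 80.2 scaled reads in BAT. Single genes ranged from 38.9 to 145, from 7.36 to 81.5 and from 0 to 38.7. Itgam had 70.6 in eWAT, 9.99 in iWAT and 5.53 in BAT, Adgre1 and Lyz2 were at 0 in BAT, and Cd68 had no region. Of 5 T cell markers only Cd4 had a region (18.5, 6.31 and 5.53), and Cd3e, Cd3g, Cd8a and Lck had none. The part of other cell types in the receptor values was not tested.

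**Figure D4:**
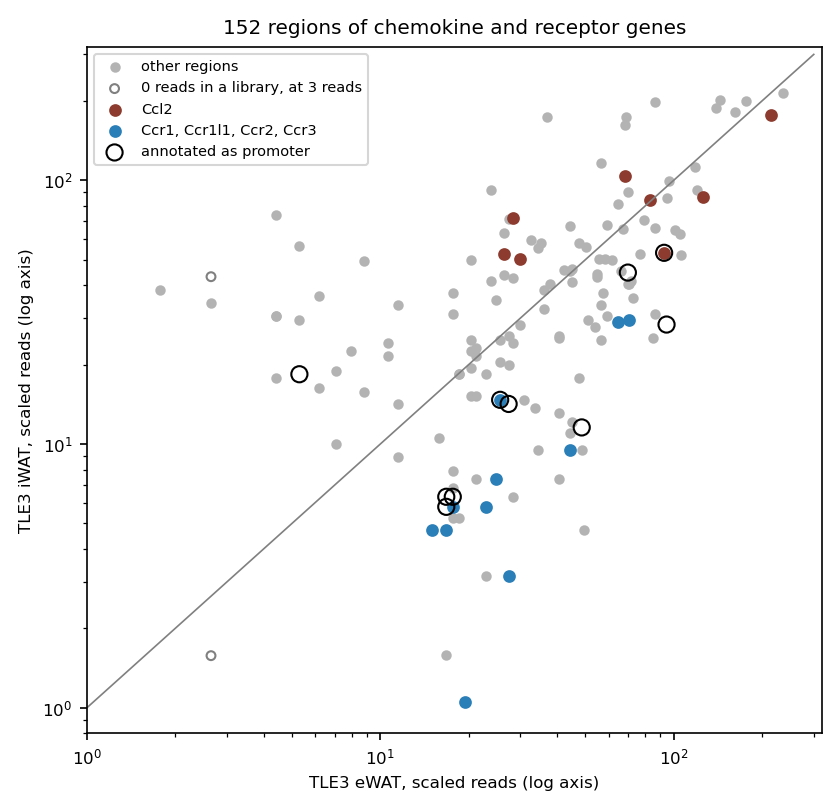
The plot shows 152 member regions by scaled reads in eWAT (horizontal log axis) and iWAT (vertical log axis), with the line of equal values; open grey circles mark regions with 0 reads in a library, drawn at 3 reads. The 11 blue regions of Ccr1, Ccr1l1, Ccr2 and Ccr3 lie below the line, as do 9 of the 10 black promoter circles, while the red Ccl2 regions lie on both sides.

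Outside that cluster, Cxcr4, the receptor of Cxcl12, had 282 in eWAT, 282 in iWAT and 147 scaled reads in BAT, with 162, 182 and 99.6 in 1 region 23.0 kb before the start. Cxcr1, a neutrophil receptor, had 57.4, 37.3 and 5.53. Cx3cr1, the receptor of Cx3cl1, had 169 in eWAT, 161 in iWAT and 22.1 scaled reads in BAT, a log2 ratio of BAT over eWAT of −1.39 (−2.63 to −0.39), while the ratio of its ligand was 0.09 (−0.42 to 0.56). The last 5 members (Ccr10, Ccr1l1, Cxcl10, Cxcl17 and Cxcr5) stayed under 30 scaled reads in every TLE3 library and ranged from 5.30 to 28.3 in eWAT, 1.05 to 29.4 in iWAT and 0 to 16.6 in BAT.

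By single regions the depots were compared for the 68 member regions whose mean reached 30 scaled reads, relative to the median region. In eWAT over iWAT 6 were higher, beside 6.60% of all measured regions, and 9 lower, beside 14.6%. In BAT over eWAT 8 were higher, beside 15.1%, and 12 lower, beside 13.7%. In BAT over iWAT 13 were higher, beside 18.4%, and 10 lower, beside 13.4%. Ccl2 held 2 of the 8 and 4 of the 13 higher BAT regions. These member shares lay near those of all regions.

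Other genes of the pathway were taken from 4 lists. Of 8 atypical receptors, related receptors and platelet chemokines all had a region and 5 were measured, with median log2 ratios of −0.17, 0.44 and 0.72 (eWAT over iWAT, BAT over eWAT, BAT over iWAT; 0 is the median of all measured genes). Ackr3, a scavenger of Cxcl12, had 181 in eWAT, 287 in iWAT and 177 scaled reads in BAT and was higher in BAT than in eWAT by the 2-fold rule. Ackr4, a scavenger of Ccl19 and Ccl21, had 208, 127 and 22.1 and was lower in BAT than in both. The platelet chemokine Pf4 had 83.0, 54.1 and 38.7 and was higher in BAT than in iWAT (1.01), and the chemerin receptor Cmklr1 had 295, 297 and 174 with no call. Ackr3 and Ackr4 are thus a pair of scavenger genes with BAT values on opposite sides of the median gene. On the authors' scale, though, the BAT value of Ackr3 was below that of eWAT, and that of Pf4 below that of iWAT.

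Of 24 genes of chemokine receptor signalling, 18 had a region and 14 were measured, with medians of 0.03, −0.04 and 0.03 in the same order. The highest were Elmo1 (574 in eWAT, 897 in iWAT and 163 scaled reads in BAT), Pik3r5 (390, 677 and 149) and Rgs2 (392, 393 and 194). In eWAT over iWAT 2 were higher, Dock2 (1.48) and Vav1 (1.09), beside 5.30% of all measured genes, and 0 lower, beside 9.04%. In BAT over eWAT Grk2 (1.67) and Rac1 (1.01) were higher, and Vav1 (−2.34) and Rgs1 (−1.50) lower. In BAT over iWAT Grk2 (2.13) was higher and Rgs1 (−1.40) lower. On the authors' scale Grk2 was still above both white depots in BAT, and Rac1 was below eWAT. Grk2 is the kinase that marks active receptors for uptake, and Rgs1 and Rgs2 shorten G protein signals.

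Of 16 NF-κB genes, 15 had a region and 11 were measured, with medians of −0.02, 0.09 and −0.06. Nfkbia, the inhibitor that is itself an NF-κB target, had 464 in eWAT, 426 in iWAT and 254 scaled reads in BAT, Nfkb1 had 428, 449 and 83.0, and Bcl3 had 427, 306 and 91.3. None of the 11 was called between the white depots, beside 5.30% of all measured genes higher and 9.04% lower. None was higher in BAT, beside 11.4% of all measured genes over eWAT and 14.1% over iWAT. Rel (−2.11), Ikbkb (−1.26) and Ikbke (−1.38) were lower in BAT than in eWAT, and Ikbkb (−1.15) and Ikbke (−1.28) lower than in iWAT. Of 19 inflammatory cytokines and receptors, all had a region and 17 were measured, with medians of 0.23, −0.16 and −0.10. Il1r1 had 876 in eWAT, 745 in iWAT and 318 in BAT, Csf1 had 808, 537 and 249, and Tlr2 had 604, 533 and 318. The interleukin-1 genes Il1a (1.48) and Il1b (1.42) were higher in eWAT than in iWAT. In BAT over eWAT Lcn2 (1.10) was higher and Il1a (−2.82), Il1b (−1.71), Csf3 (−1.46) and Tnfrsf1a (−1.94) lower. In BAT over iWAT Lcn2 (1.62) was higher and Tnfrsf1a (−1.27) lower. On the authors' scale the BAT value of Lcn2 was below that of eWAT and above that of iWAT.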

How the data were processed

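TLE3 ChIP-seq and 1 input library were analysed from 3 deposited region tables. The tools STAR and HOMER and build mm9 appear, without version or role, per the submitters' processing notes. The deposited values are a signal, the reads of each region after the authors scaled every library to a common total, per the file headers; the deposited peak score was 0 throughout and was not used. How regions were called is not given in the sources used.

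Regions were joined by identifier, duplicates were dropped, and each region stayed with the nearest gene named in the file. Members and lists were chosen with earlier results of these data known. One member is counted but not reported here, and it is left out of the figures and the receptor sums. Described members reach 30 scaled reads in at least 1 TLE3 library, Ccl2 is given region by region, and of each pathway list the 3 genes with the highest mean sum and those past 2-fold are named. Within each library all values were whole multiples of 1 read (100% within 0.1 read). Assuming a scale of 10 M reads, the libraries held 11.3 M (eWAT), 19.0 M (iWAT), 3.62 M (BAT) and 15.4 M (input) reads. Ratios were centred on the median of the 9099 genes whose mean reached 30 scaled reads. Intervals were checked on simulated data. Gene classes came from RefSeq tables (GRCm38.p6), where family names were picked by symbol and genes with a region were matched by Entrez identifier. Promoter sequences of the same build were matched by symbol and not aligned to mm9. Python 3.11.15, numpy 2.4.6, pandas 2.3.3, scipy 1.17.1 and matplotlib 3.10.9 were used. Alternatives were other scalings, distances, minimum values, folds and list sizes.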

Additional observations from a re-analysis of the deposited data

How the results depend on the processing

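No paired analysis was possible because each group has 1 library. The size of the BAT differences, and for some members their sign, changed with the scaling. Listed BAT regions went down to 6 reads, and the part of depth was not tested. With lists of equal size, 23 family genes had a listed eWAT region (40 with all regions), 19 an iWAT region (38) and 26 a BAT region (26). BAT thus had the most at that setting and the fewest with all regions. Its full list was the shortest, with 15042 regions beside 51015 in eWAT and 50456 in iWAT. BAT had 17 (26 with all) both within 10 kb and with at least 30 scaled reads. No share of all genes is given for these settings, so the order of the depots cannot be set against all genes. Members called in eWAT over iWAT (4) came to 7 on the authors' scaling and on the ratio of sums, 12 with no minimum, 1 at a mean of at least 100 scaled reads (0 higher and 1 lower of 18) and 13 at a fold of 1.5. Of all genes, 7.81% were then higher and 6.85% lower, 7.97% and 6.66%, 11.2% and 13.5%, 1.82% and 4.49%, and 14.9% and 19.2%, in that order. Members called in BAT over eWAT (11) came to 25 on the authors' scaling, 6 within 10 kb, 6 at a mean of at least 100 and 6 with regions listed in both depots, where 0.901% of all genes were higher and 72.4% lower, 13.3% and 13.7%, 7.33% and 10.4%, and 6.80% and 6.04%. Members called in BAT over iWAT (10) came to 21, 4, 4 and 5 in the same order, where 0.846% of all genes were higher and 68.1% lower, 15.3% and 13.0%, 9.84% and 11.7%, and 8.27% and 8.56%. The Ccl2 ratio of BAT over eWAT (1.77) was 0.23 on the authors' scaling, 0.98 relative to regions listed in all 3 depots, 0.32 within 10 kb and 0.32 without the 2 strongest BAT regions. The ratio over iWAT (1.70) was 0.21, 0.87, 0.37 and 0.22. Regions listed in both depots, and Ccl2 without its 2 strongest regions, were chosen after seeing the data. Fewer regions or genes enter within 10 kb, at the higher minimum and with shared listing; for the other changes the cause was not tested.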

Other observations

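The 4 member regions listed in BAT alone belonged to Ccl12, Ccl20, Ccr7 and Cxcl13. The Cxcl13 region, 41.6 kb before the start, had 19.4 scaled reads in BAT and 0 in both eWAT and iWAT. At Ccl20 the region 14.1 kb before the start had 22.1 in BAT, 7.06 in eWAT and 9.98 in iWAT. At Ccl12 the region 13.2 kb before the start had 24.9, 11.5 and 14.2 in the same order, and at Ccr7 the region 22.2 kb before the start had 16.6, 11.5 and 8.93. The 4 genes that mark fibroblasts went different ways: Thy1 had 47.7 in eWAT, 191 in iWAT and 5.54 in BAT, Dpt had 828, 657 and 271, Col1a1 had 109, 126 and 44.2, and Pdgfra had 0, 0 and 19.4.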
